A study of Mus musculus with 16 samples.

Results

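The Cecr2 gene trap was compared with wild type in embryos of the mouse strain BALB/cCrl, as mutant minus wild type over every probe set of the array. The comparison used 8 of the 16 arrays of the study, 4 of homozygous mutants and 4 of wild types, each hybridised with RNA of 1 whole embryo. The mutants carried 2 copies of the trap allele Cecr2Gt45Bic, which had been bred onto BALB/cCrl for more than 10 generations, and came from crosses of heterozygotes. All 8 embryos were female, had 11 to 14 somites and were taken just before the cranial neural tube closes, with the extraembryonic membranes set aside for genotyping. The other 8 arrays held FVB/N embryos, 4 wild types and 4 homozygotes for the same allele from crosses of homozygotes. These embryos also had 11 to 14 somites, and the FVB/N mutants were of a line backcrossed for more than 10 generations. The FVB/N arrays served for the shared estimate of spread and for a comparison of the strains. The litter, the somite number and the state of the neural tube of each embryo are not given in the sources used here, and neither is the strain of the cells in which the trap was made.

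Cecr2 encodes a bromodomain protein that joins the ISWI ATPases, motor proteins that slide nucleosomes along DNA. Mice that lack it are known for exencephaly, in which the neural folds of the future brain fail to meet, and the share of affected embryos depends on the strain. At the stage sampled here the cranial folds are raised, and head mesenchyme, neural crest and surface ectoderm lie around them. A level below is a log2 expression value of a probe set, a difference is mutant minus wild type on that scale, and a probe set is called changed where limma's adjusted p is under 0.05 over all 45037 probe sets. A whole embryo was extracted for each array, so fewer cells of a type and less RNA per cell cannot be told apart in any of these values.

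Wild type 1 and mutant 4 stood apart within their groups on the first principal component, which held 25.7% of the variance. Wild type 1 lay at -25.1 and mutant 4 at -20.5. The other wild types lay at -3.3 to 1.1 and mutants 1 to 3 at 14.3 to 18.7. Wild type 1 correlated best with mutant 4 (r = 0.9971 over probe sets). These 2 arrays carry adjoining embryo numbers in the deposited headers, and whether that marks a shared litter is not stated. Mutant 2 stood apart in other ways. Its mean correlation was 0.99563 with the other mutants and 0.99605 with the wild types, and its closest array was wild type 3. On the second component it lay at 18.1, against -20.8 to -13.2 for the other mutants. Wild type 1 correlated slightly better with its own group (0.99653) than with the mutants (0.99565), and mutant 4 less well (0.99555 against 0.99636). The 3' over 5' signal of Gapdh was 0.0388 higher in mutants (exact permutation p = 0.029, two-sided, the smallest that 4 against 4 allows), that of Actb differed by -0.0713 (exact permutation p = 0.20) and that of Tfrc by -0.0455 (exact permutation p = 0.49). Probe sets of Y-linked genes lay at 3.11 to 4.53, close to the floor of the table. The calls are given with and without wild type 1 and mutant 4.

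**Figure D1:**
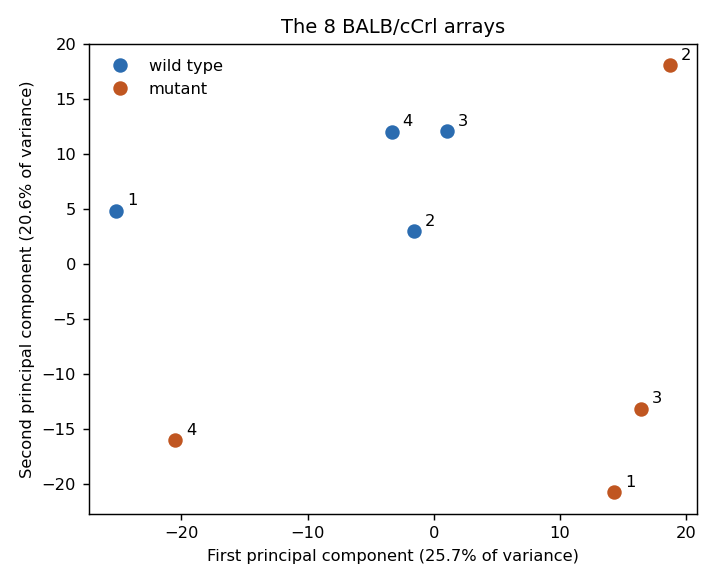
The first 2 principal components of the 8 BALB/cCrl arrays, with the replicate number beside each point and the share of variance on each axis. Wild type 1 (-25.1) and mutant 4 (-20.5) lie at the low end of the first component, and mutants 1 to 3 lie at the other end, from 14.3 to 18.7.

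The trapped gene was far lower in every mutant. At the probe set that represents it, Cecr2 read 8.29, 8.64, 8.07 and 8.24 in wild types 1 to 4 and 6.04, 5.92, 5.90 and 5.92 in mutants 1 to 4. The mutant values lay within a narrow band, more than 2 units below every wild type. The difference was -2.36 (SE 0.108, n = 4 per group), or 5.15-fold, with a limma adjusted p of 1.9e-10. At its other probe set the wild types read 8.40, 8.22, 7.81 and 8.51 and the mutants 5.84, 5.68, 5.22 and 6.66, so mutant 4 kept the highest mutant level and the spread among mutants was wider (SD 0.600). There the difference was -2.39 (SE 0.246, limma adjusted p = 6.8e-05). In the authors' gcRMA values of the same 8 arrays, mutant 4 did not stand out at this probe set: it read 4.24 beside 4.01, 4.21 and 3.97 in mutants 1 to 3, against 7.46 to 7.78 in wild types. Where the trap sits relative to these probe sets is not given in the sources used here, so a residual signal says nothing of intact transcript.

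In all, limma called 9 probe sets of 8 genes, 2 higher (0.00444%) and 7 lower (0.0155%) in mutants. That is 0.02% of the 45037 probe sets, and 0.044% of the 18193 genes when each is represented by its brightest probe set. At an unadjusted p under 0.05 there were 4296 probe sets (9.54%), and the groups did not overlap in 2308 (5.12%), 849 higher (1.89%) and 1459 lower (3.24%) in mutants. All 9 called probe sets were among those without overlap. With 4 embryos a group, 9 calls beside 9.54% at the unadjusted level describe a comparison in which few probe sets stood clear of the spread between embryos.

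**Figure D2:**
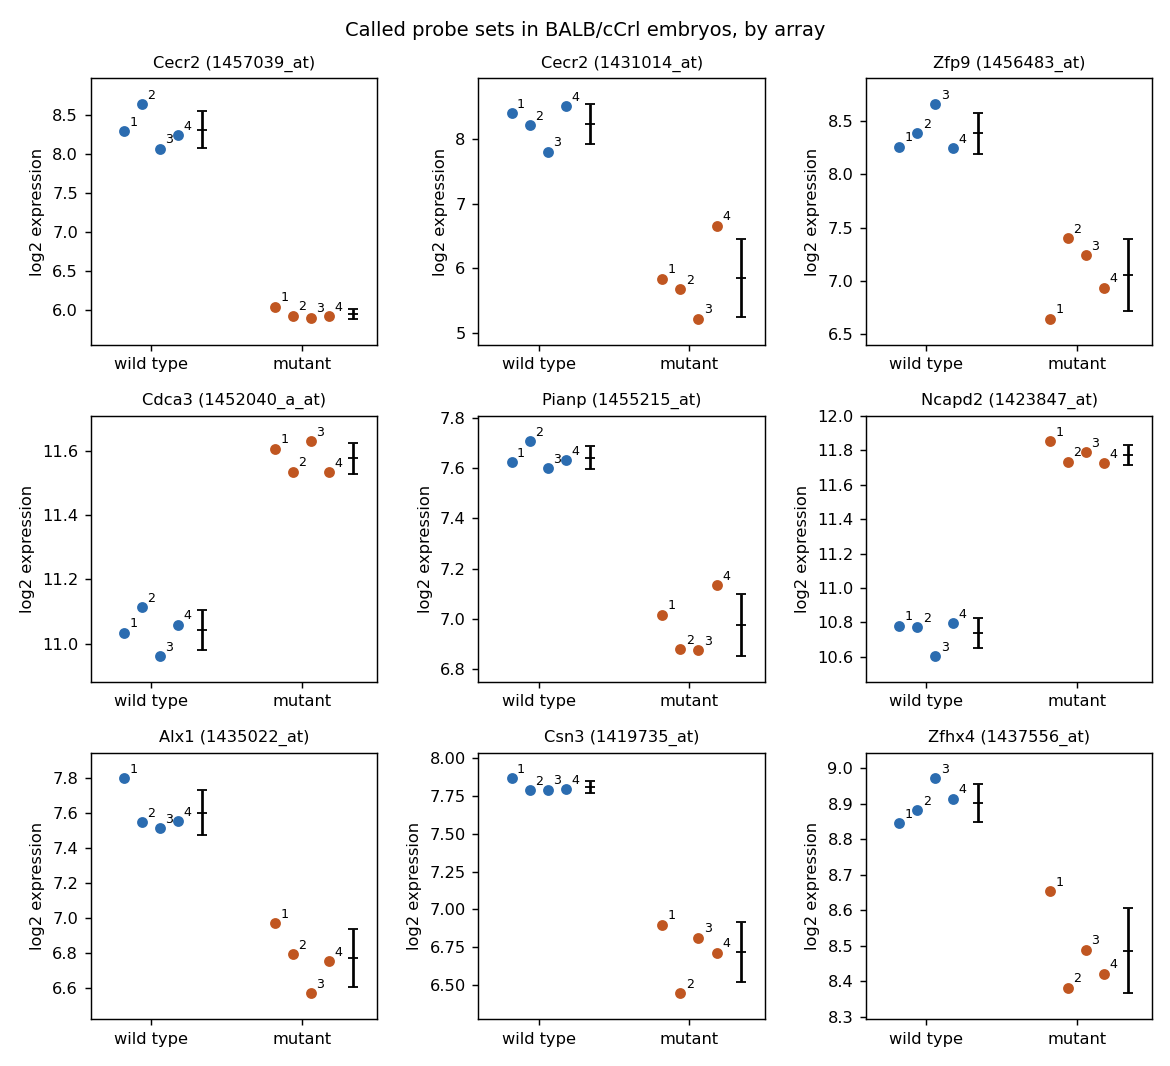
Log2 expression (vertical axes, each with its own range) of the 9 called probe sets in the 4 wild types and 4 mutants, numbered by replicate, with the group mean and SD as a bar. No mutant overlaps a wild type in any panel. The second probe set of Cecr2 shows mutant 4 above the other mutants, at 6.66.

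Apart from Cecr2, the called genes fell into 2 sets by position. In the first, 4 neighbours of Cecr2 on chromosome 6 changed, Ncapd2 and Cdca3 upward and Zfp9 and Pianp downward. The other 3 called genes, Csn3, Alx1 and Zfhx4, lie on chromosomes 5, 10 and 3 and all fell. Distances below run between gene starts on GRCm38.p6, taken as the lower coordinate of each gene on either strand. Only measured genes are counted between them.

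Ncapd2, a non-SMC subunit of condensin I, the ring complex that compacts chromosomes in mitosis, was the gene that rose most. It lies 4.5 Mb from Cecr2, 69 measured genes away. Its brighter probe set read 10.78, 10.77, 10.60 and 10.80 in wild types and 11.85, 11.73, 11.79 and 11.73 in mutants. The groups were 0.93 apart at their nearest, and each spread over less than 0.2. The difference was 1.04 (SE 0.0718, 2.05-fold, limma adjusted p = 2e-07). The other probe set of Ncapd2 differed by 0.28 (SE 0.142, limma adjusted p = 0.55), with mutant 4 (7.18) below every wild type and mutant 2 (8.14) above every other array. The rise was thus measured by 1 of its 2 probe sets.

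Cdca3, a cell cycle protein that promotes entry into mitosis, lies on the same side of Cecr2 at 4.16 Mb, 53 measured genes away. At its brightest probe set the wild types read 11.03, 11.11, 10.96 and 11.06 and the mutants 11.61, 11.53, 11.63 and 11.53. The difference was 0.53 (SE 0.0516, 1.45-fold, limma adjusted p = 3e-05). Its other probe sets lay at 3.31 to 5.14 on every array and differed by 0.06 and 0.01, close to the floor of the table.

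Ncapd2 and Cdca3 are both mitotic genes, but no other condensin or chromosome segregation gene of the list was called. Of 25 measured genes of that list these 2 were called, and the median difference of the list was 0.0119 against -0.00695 over all 18193 genes. The SMC subunits that Ncapd2 works with gave 0.01 for Smc2 (SE 0.0395) and 0.01 for Smc4 (SE 0.0674). The partner subunits of condensin I gave 0.02 for Ncapg (SE 0.0578) and -0.03 for Ncaph (SE 0.0546), and the condensin II subunit Ncapd3 gave -0.07 (SE 0.0594). Bub1b, a kinase of the spindle checkpoint, was the next member by p, at 0.18 (SE 0.0477, limma adjusted p = 0.32), and its groups did not overlap at this probe set. At its dimmer probe sets they overlapped, with differences of 0.09 and -0.08. Without overlap 3 members of the list were higher and 1 lower, where 1.61% of all genes were higher and 4.14% lower.

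Zfp9, a zinc finger gene, lies on the opposite side of Cecr2, 2.20 Mb and 20 measured genes away. Its probe set read 8.26, 8.39, 8.66 and 8.25 in wild types and 6.64, 7.40, 7.24 and 6.93 in mutants. Mutants varied more than wild types (SD 0.336 against 0.192), yet the highest mutant stayed 0.85 below the lowest wild type. The difference was -1.34 (SE 0.150, 2.52-fold, limma adjusted p = 2.3e-04).

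Pianp, which encodes a membrane protein that binds the receptor PILR-alpha, lies between Cdca3 and Ncapd2 at 4.33 Mb. At its brighter probe set the wild types read 7.62, 7.71, 7.60 and 7.63 and the mutants 7.02, 6.88, 6.87 and 7.13. The difference was -0.66 (SE 0.0781, 1.59-fold, limma adjusted p = 3.8e-04), opposite in direction to Cdca3, 9 measured genes away, and to Ncapd2, 7 measured genes away. The other probe set of Pianp gave -0.01 (SE 0.0856).

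The upstream sequences of the 3 called genes on this side of Cecr2 are shown because 2 of them rose and the one between them fell. Each is the 250 bases before the start of the gene as transcribed, from RefSeq on GRCm38.p6, read 5' to 3' on the strand of the gene. Ncapd2 is at chr6:125191587-125191836 on the minus strand, Cdca3 at chr6:124829926-124830175 on the plus strand and Pianp, the first of its 3 promoters in the table, at chr6:124996470-124996719 on the plus strand. Capitals mark the letters TTTGAA, the CHR element known from cell cycle promoters, and CCAAT, the box bound by NF-Y, on either strand.
Ncapd2: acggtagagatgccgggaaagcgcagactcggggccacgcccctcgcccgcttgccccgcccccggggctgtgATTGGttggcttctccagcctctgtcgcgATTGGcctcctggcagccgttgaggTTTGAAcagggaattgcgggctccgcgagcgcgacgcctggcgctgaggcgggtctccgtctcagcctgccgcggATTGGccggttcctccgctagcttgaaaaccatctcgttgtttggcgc
Cdca3: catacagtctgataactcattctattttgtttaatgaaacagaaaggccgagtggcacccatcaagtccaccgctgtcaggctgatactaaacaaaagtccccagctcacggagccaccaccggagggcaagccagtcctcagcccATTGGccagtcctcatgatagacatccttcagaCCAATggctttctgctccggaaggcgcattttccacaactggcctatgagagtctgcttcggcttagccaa
Pianp: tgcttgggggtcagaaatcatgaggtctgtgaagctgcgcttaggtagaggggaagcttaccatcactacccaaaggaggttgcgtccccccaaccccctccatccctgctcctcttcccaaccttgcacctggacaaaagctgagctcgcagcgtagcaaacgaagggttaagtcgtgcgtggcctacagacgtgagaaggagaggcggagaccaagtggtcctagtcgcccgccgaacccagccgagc
TTTGAA occurred once before Ncapd2, 123 bases from the start, and in neither of the other sequences. CCAAT occurred 3 times before Ncapd2, at 177, 148 and 48 bases, and 2 times before Cdca3, at 104 and 71 bases, and it was not in the Pianp window. The motifs did not overlap each other. Of 32851 mouse promoter windows of this length, 16% held TTTGAA and 33.8% held CCAAT, so both are common sequences and their presence here is a description only. The TATA box letters TATAAA, held by 12.4%, were in none of the 3 windows.

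Called genes made up a larger share of the interval around Cecr2 than of other chromosomes, while the shares at the unadjusted level were close. Leaving out Cecr2, 232 measured genes lie within 10 Mb of it, and 4 of them were called (1.72%), against 3 of the 17040 genes of other chromosomes (0.0176%), a difference that was not tested. At an unadjusted p under 0.05 there were 25 (10.8%, against 9.8% on other chromosomes), and in 16 the groups did not overlap (6.9% against 5.69%, and 5.74% of all genes). Of these 16, 5 were higher and 11 lower in mutants, where 1.61% of all genes were higher and 4.14% lower without overlap. Between 10 and 30 Mb 0 of 183 genes were called by limma, with 9.84% at an unadjusted p under 0.05, and on the rest of chromosome 6 the figures were 0 of 576 and 8.16%.

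Neighbours that were not called are given next, chosen after their values were seen. Cops7a, a subunit of the COP9 signalosome 4.29 Mb from Cecr2, was lower without overlap at both of its probe sets, by -0.25 (SE 0.0487, limma adjusted p = 0.12) and -0.27 (SE 0.0532, limma adjusted p = 0.11). It lies between the called genes Cdca3 and Pianp. Ankrd26, 2.17 Mb away beside Zfp9, was higher at all 3 of its probe sets, by 0.37 (SE 0.0750, limma adjusted p = 0.12), 0.30 and 0.19, and without overlap at the first of these. Eno2, the neuronal enolase, lies 4.09 Mb away and differed by -0.28 (SE 0.106, limma adjusted p = 0.43). In a congenic line the DNA beside a selected allele can differ from the host strain, and with 1 allele in these mutants an effect of the trap and a difference in linked DNA cannot be told apart.

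**Figure D3:**
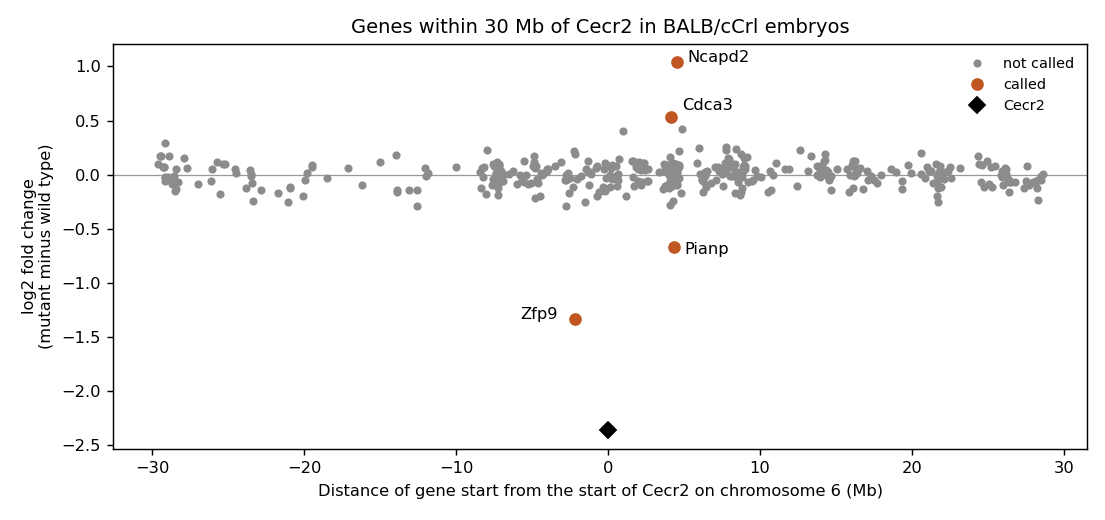
Difference in log2 expression (mutant minus wild type, vertical axis) of measured genes within 30 Mb of Cecr2, against the distance between gene starts (lower coordinates) in Mb. The 4 called neighbours lie from 2.20 Mb on one side to 4.5 Mb on the other, and genes between 10 and 30 Mb hold no call.

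Away from chromosome 6, Csn3 fell most. Csn3 encodes kappa-casein, the milk protein that keeps casein micelles in solution. At its brighter probe set it read 7.87, 7.79, 7.79 and 7.79 in wild types, values closer together than for any other called gene (SD 0.0374), and 6.90, 6.44, 6.81 and 6.71 in mutants. The difference was -1.10 (SE 0.0994, 2.14-fold, limma adjusted p = 1.4e-05). The other probe set of Csn3 lay at 3.59 to 3.76 on all 8 arrays and differed by -0.07, so only 1 probe set carried a signal above the floor.

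Alx1, a homeobox factor of the frontonasal head mesenchyme whose loss is known to leave the cranial neural tube open in mice, fell in all mutants. It read 7.80, 7.55, 7.51 and 7.56 in wild types and 6.97, 6.79, 6.57 and 6.75 in mutants at its brighter probe set. The groups were 0.54 apart at their nearest, and the difference was -0.83 (SE 0.102, 1.78-fold, limma adjusted p = 6.1e-04). Its other, dimmer probe set differed by -0.42 (SE 0.131, limma adjusted p = 0.37), and there the groups overlapped. Its relative Alx4 gave 0.10 (SE 0.114, limma adjusted p = 0.83) at levels of 5.29 to 5.66.

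Zfhx4, a large zinc finger and homeobox protein, gave the smallest called fall. Its wild types read 8.85, 8.88, 8.97 and 8.91 and its mutants 8.65, 8.38, 8.49 and 8.42 at its brighter probe set. The difference was -0.42 (SE 0.0702, 1.33-fold), with a limma adjusted p of 0.050, just under the threshold. The call was lost in 11 of 18 other settings, among them each fit that left out 1 wild type, where the adjusted p ran from 0.084 to 0.23.

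Both Alx1 and Zfhx4 belong to a list of head mesenchyme and placode transcription factors, which was drawn up with earlier results of these data known. Of 25 measured members 2 were called lower and 0 higher by limma, 9 were lower and 0 higher at an unadjusted p under 0.05, where 6.34% of all genes were lower, and 7 were lower without overlap, where 4.14% of all genes were. The median difference was -0.0806, with 18 members below 0, against a median of -0.00695 and 52.8% below 0 over all genes. Dlx5, a homeobox factor of the branchial arches and the anterior neural ridge, was the member with the next smallest p and was not called. It read 8.27, 8.21, 8.31 and 8.23 in wild types and 7.88, 7.92, 7.90 and 7.81 in mutants (-0.38, SE 0.0727, limma adjusted p = 0.11). The other members without overlap, named after their values were seen, were Prrx1 (-0.46), Dlx2 (-0.39), Eya1 (-0.35) and Six4 (-0.33), with limma adjusted p from 0.27 to 0.45. Mutant 2 was the lowest array for Prrx1, at 7.73 against 8.2 to 8.49 in the other mutants, and for Dlx2, at 7.21 against 7.60 to 7.78. The list as a whole was lowest in mutant 2 too, and mutant 1 (0.0363) reached the wild type range of -0.0042 to 0.118 in its median deviation.

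Among the genes of cranial neural tube closure, as many lay higher as lower at the unadjusted level, but those without overlap were all lower. Of 49 measured members Alx1 was the 1 called, and the median was -0.0105. At an unadjusted p under 0.05, 4 members were higher and 4 lower, where 3.39% of all genes were higher and 6.34% lower. Without overlap 0 were higher and 3 lower, where 1.61% of all genes were higher and 4.14% lower. The planar cell polarity gene Vangl2, which helps the neural plate narrow, gave 0.28 (SE 0.0856, limma adjusted p = 0.37) at its brightest probe set. There mutants 1 and 3 read 10.79 and 10.92 while mutants 2 and 4 (10.50 and 10.44) lay near the wild types, which read 10.33 to 10.44. The other probe sets of Vangl2 gave 0.14 (SE 0.110) and -0.05 (SE 0.0692). Cfl1, which encodes the actin severing protein cofilin, gave -0.09 (SE 0.0350, limma adjusted p = 0.45).

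Among the ISWI partners of Cecr2, no other gene was called. Of 15 measured members of the ISWI complexes, the ATPases Smarca5 and Smarca1 gave -0.01 (SE 0.0358) and -0.11 (SE 0.0932). The largest difference after Cecr2 was in Baz2a, the partner of Smarca5 in the nucleolar remodeller NoRC. It read 9.69, 9.72, 9.67 and 9.73 in wild types and 10.03, 9.86, 10.07 and 9.88 in mutants, a difference of 0.26 (SE 0.0582, limma adjusted p = 0.19) without overlap. Baz1b, the partner in the WICH complex, differed by 0.13 (SE 0.0409, limma adjusted p = 0.37), also without overlap. These values are from the brightest probe set of each gene. At the dimmer probe sets of both genes the groups overlapped, with differences of 0.15 and 0.10 for Baz2a and -0.01 to 0.10 for Baz1b. Lrwd1, named after its values were seen, differed by -0.16 (SE 0.0563, limma adjusted p = 0.40).

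Genes of the hypoxia response and glycolysis lay higher in mutants without any single one being called. By limma 0 of 27 measured members passed, 11 were higher and 0 lower at an unadjusted p under 0.05 (3.39% of all genes were higher), and 24 lay above 0, with a median of 0.106. Bnip3, a mitochondrial protein induced by low oxygen, read 11.46, 11.83, 11.48 and 11.64 in wild types and 12.05, 12.12, 11.92 and 11.74 in mutants (0.36, SE 0.0902, limma adjusted p = 0.27). Pfkp, a phosphofructokinase, was higher without overlap (0.26, SE 0.0780, limma adjusted p = 0.36), although mutant 4 at 8.67 lay only just above wild type 1 at 8.66. Pdk1, the kinase that holds back pyruvate dehydrogenase, gave 0.25 (SE 0.0829, limma adjusted p = 0.39). By array, the median deviation of the list was 0.0554, 0.105, 0.0702 and -0.0103 in mutants 1 to 4 and -0.0786, 0.0499, -0.129 and -0.0187 in wild types, so mutant 4 lay among the wild types and wild type 2 near the mutants. Time between death and freezing is not given per embryo in the sources used here, and its part in these levels was not tested.

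**Figure D4:**
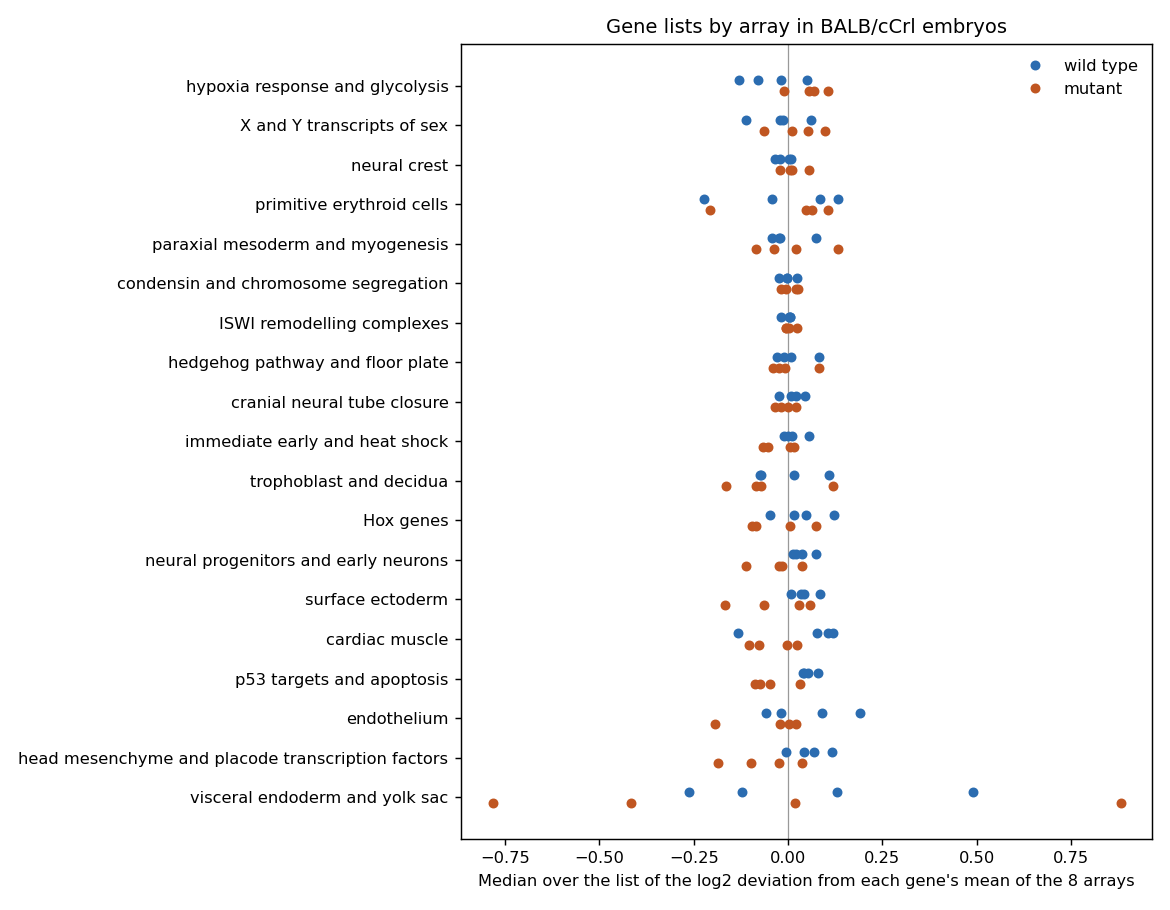
Median over each gene list of the log2 deviation from the mean of the 8 arrays (horizontal axis), 1 point per array, lists ordered by the difference of group means. The yolk sac list spreads from -0.784 in mutant 1 to 0.883 in mutant 2, and the groups overlap in that list as in the hypoxia list.

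Of 21 measured p53 targets and apoptosis genes, 0 were called by limma and 18 lay below 0 (median -0.0860). Perp, a p53 target that is also part of desmosomes, came closest. It read 8.06, 8.10, 8.14 and 8.12 in wild types and 7.83, 7.15, 7.47 and 7.68 in mutants, a difference of -0.58 (SE 0.104, limma adjusted p = 0.067). Mdm2, which encodes the ligase that removes p53, went the other way at its brightest probe set, at 0.19 (SE 0.0647, limma adjusted p = 0.39). Its other probe sets gave -0.07 (SE 0.0603) and -0.03 (SE 0.111), the last of them dim. Ccng1 gave -0.27 (SE 0.1, limma adjusted p = 0.43). Perp is also an epithelial gene, and surface ectoderm genes had a median of -0.0640 with 14 of 21 below 0. Among these, Dsp, the desmosomal protein desmoplakin, gave -0.32 (SE 0.0793, limma adjusted p = 0.26) without overlap, Esrp1 -0.26 and Epcam -0.26.

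Markers of other tissues in the whole embryo were not called, and some differed widely between embryos. None of the 24 endothelial, 21 cardiac, 20 yolk sac, 15 erythroid or 19 trophoblast and decidua genes was called by limma. Endothelial genes had 21 members below 0 (median -0.0932), with Sox17 at -0.37 (SE 0.0999, limma adjusted p = 0.33) and Esam at -0.19, both without overlap, where 1.61% of all genes were higher and 4.14% lower. Sox17 is also an endoderm gene. Cardiac genes had 18 below 0 (median -0.0795), with Hand2, a factor of heart, limb and branchial arch mesenchyme, at -0.37 (SE 0.0814, limma adjusted p = 0.17). At its brightest probe set Hand2 read 10.00 to 10.12 in wild types and 9.67, 9.67, 9.56 and 9.94 in mutants, which did not overlap. At its dimmer probe sets the groups overlapped, with differences of -0.16 (SE 0.102) and -0.14 (SE 0.148). Erythroid genes had a median of 0.0532 and trophoblast and decidua genes one of -0.00598. Yolk sac genes had a median of -0.129, and their mean level ran from 9.15 to 9.78 in wild types and from 8.73 to 10.14 in mutants, a range over single embryos wider than any difference between the groups. The means of the yolk sac genes Afp and Ttr were 12.75 and 12.96 in wild types and 12.56 and 12.83 in mutants, and Alb lay at 4.27 to 4.92 on all arrays. The part of these tissues in the other differences was not tested.

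Other lists held no called gene. Neural crest genes split evenly about 0 (median -0.00730, 10 of 20 above), with Sox10, the factor of migrating crest, at 0.28 (SE 0.0720, limma adjusted p = 0.27) and higher without overlap, Foxd3 at 0.18 and Pax7 at -0.24. Neural progenitor and early neuron genes had 18 of 25 below 0 (median -0.0536), with the neuronal RNA-binding protein gene Elavl4 at -0.47 (SE 0.146, limma adjusted p = 0.37). Hox genes had 17 of 23 below 0 (median -0.0841), with Hoxd1 at -0.49 (SE 0.227) and Hoxb6 at -0.27 (SE 0.0872). Hedgehog pathway genes had a median of -0.00410 over 19, with Foxa1 of the floor plate at -0.35 (SE 0.0986, limma adjusted p = 0.33). Paraxial mesoderm genes had a median of -0.0335 over 21 and immediate early and heat shock genes one of -0.0454 over 27, with 19 below 0. The 8 X and Y transcripts had a median of -0.0100.

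By size among genes with a mean level of at least 6, an unadjusted p under 0.05 and no overlap, the largest positive differences after Ncapd2 were those of Trim62, Cdca3, Sbsn, Igfbp2, Mdfi, Thbs1 and Galnt2. Besides the called genes, only Igfbp2, which encodes a binding protein of insulin-like growth factors, came near the threshold. It read 11.43, 11.66, 11.37 and 11.52 in wild types and 11.98, 11.90, 12.06 and 11.85 in mutants (0.45, SE 0.0805, limma adjusted p = 0.064). Trim62, a ubiquitin ligase gene, gave 0.54 (SE 0.127, limma adjusted p = 0.23), with mutants 1 and 3 (7.18 and 7.34) above mutants 2 and 4 (6.81 and 6.91). The other probe sets of Trim62 gave -0.04 and -0.02. Mdfi, an inhibitor of myogenic factors, gave 0.44 and Sbsn, of keratinising epithelium, 0.46, both with a limma adjusted p of 0.18. At the dimmer probe set of Mdfi the difference was 0.08, and the groups overlapped. Dimmer probe sets of Sbsn gave 0.33 without overlap and 0.03 with overlap. Thbs1, the matrix protein thrombospondin 1, gave 0.40 and Galnt2, an enzyme of O-glycosylation, 0.39, with limma adjusted p of 0.34 and 0.30.

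Among the largest negative differences, those of Otub1, Cd36 and Fermt3 were not called. Cd36, the scavenger and fatty acid receptor, was lower without overlap at all 3 of its probe sets. At the brightest it read 6.69, 7.04, 6.65 and 6.95 in wild types and 6.01, 6.26, 6.38 and 5.99 in mutants (-0.67, SE 0.133, limma adjusted p = 0.12), and the other differences were -0.30 and -0.22.

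Otub1, a deubiquitinase gene on chromosome 19, differed by -1.09 (SE 0.260, limma adjusted p = 0.23), but the wild types themselves were split. Wild types 3 and 4 read 9.11 and 9.06 at the brighter probe set, wild types 1 and 2 read 7.67 and 7.56, and the mutants read 7.45, 7.46, 7.30 and 6.84. The second probe set had the same 2 wild types on top (8.02 and 8.0, against 7.53 and 7.69) and mutants at 6.95 to 7.41, a difference of -0.65 (SE 0.114, limma adjusted p = 0.064). Fermt3, the kindlin of blood cells, lies 0.199 Mb from Otub1, and at its brightest probe set wild types 3 and 4 again read highest, at 7.67 and 7.38, against 6.99 and 7.04 in wild types 1 and 2 and 6.30 to 6.91 in mutants. The other probe sets of Fermt3 differed by -0.08, -0.03 and 0.04, with groups that overlapped. Trmt112, chosen after its values were seen, lies 0.289 Mb from Otub1, and its dimmer probe set read 7.50 and 7.48 in wild types 3 and 4, 6.99 and 7.06 in wild types 1 and 2 and 6.76 to 6.94 in mutants. Its much brighter probe set ran from 12.52 to 12.70 over all 8 arrays and did not show the split.

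Leaving out the 2 arrays that stood apart on the first principal component raised the number of calls. Without wild type 1 and mutant 4, limma called 22 probe sets (0.0488%), 13 higher (0.0289%) and 9 lower (0.02%), of which 8 were among the 9 above. Besides those 8, the named genes were Otub1 at its second probe set (-0.82, limma adjusted p = 0.0035), Pdk1 at its dimmest probe set (0.69, limma adjusted p = 0.016), Anxa1 (-0.65, limma adjusted p = 0.025) and Hand2 (-0.47, limma adjusted p = 0.050), with Rai14, Stk38, Dync1h1 and Fryl named after their values were seen. Anxa1, the phospholipid-binding protein annexin A1, read 7.08 to 7.57 in wild types, 6.4 to 6.7 in mutants 1 to 3 and 7.14 in mutant 4, so mutant 4 alone overlapped the wild types. Pdk1 at that probe set read 4.95, 5.45, 5.58 and 5.55 in wild types and 6.29, 6.23, 6.15 and 5.27 in mutants, again with mutant 4 among the wild types. Both genes were picked by a fit without mutant 4, so its place there was largely set by that choice.

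Leaving out mutant 4 alone gave more calls than leaving out both. Without it 115 probe sets were called (0.255%), 89 higher (0.198%) and 26 lower (0.0577%), and without wild type 1 alone 9 (0.02%), 2 higher (0.00444%) and 7 lower (0.0155%). Of the 89 higher probe sets, mutant 4 lay below mutants 1 to 3 in 86 and inside the wild type range in 46. Because these probe sets were picked by a fit without mutant 4, its place among them was largely set by that choice. The counts are thus a description only. Of the 89, 50 (56.2%) had no single gene symbol in the annotation, against 22.4% of all probe sets, while of the 26 lower 2 had none. The median level over the 8 arrays was 7.01 for the 89 higher and 7.77 for the 26 lower, against 6.39 for all probe sets. All 9 calls of the full comparison were called without mutant 4 as well. Among genes described above, Ankrd26 (0.42, limma adjusted p = 0.027) and Bnip3 (0.43, limma adjusted p = 0.050) were called then, and so were Perp (-0.62, limma adjusted p = 0.025) and Igfbp2 (0.48, limma adjusted p = 0.025). Hand2 (-0.45), Anxa1 (-0.73), Otub1 at its second probe set (-0.73) and Pdk1 at its dimmest (0.84) were called too. Pfkp was called at a dimmer probe set (0.52). Limma adjusted p for these genes ran from 0.0066 to 0.046. Rai14, Stk38, Dync1h1 and Fryl were called here as well. Which of the arrays represents the group better was not tested.

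The authors' gcRMA table of the same 8 arrays, which they normalised apart from FVB/N, gave fewer calls. In a fit of those 8 arrays alone, which called 8 probe sets on the main values, limma called 3 of 45101 probe sets (0.00665%), both of Cecr2 and Ncapd2, with 2738 at an unadjusted p under 0.05 (6.07%) and 1363 without overlap (3.02%). The differences of all 9 called probe sets kept their sign there. Most were larger, with -3.86 and -3.5 for Cecr2, 1.21 for Ncapd2, -1.87 for Zfp9, -1.59 for Csn3, -1.22 for Alx1 and 0.65 for Cdca3. Limma's adjusted p was 0.055 for Cdca3, 0.074 for Alx1, 0.078 for Csn3, 0.25 for Zfp9, 0.40 for Zfhx4 and 0.81 for Pianp, the 1 called gene whose groups overlapped in that table (-0.55). Pianp was dim there, at 2.72, 3.93, 2.84 and 2.46 in wild types and 2.40 to 2.46 in mutants, and wild type 2 carried most of that difference. In the authors' deposited table of gcRMA comparisons, the same 3 probe sets had an adjusted p under 0.05.

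The trap was then compared between the strains through the 9 called probe sets. In FVB/N all 9 differed in the same direction, and 8 of them were also called there, where limma called 268 of 45037 probe sets (0.595%). The exception was Pianp, with -0.26 (SE 0.0781, limma adjusted p = 0.15) in FVB/N against -0.66 in BALB/cCrl. Ncapd2 differed by 0.84 and Cdca3 by 0.57 in FVB/N, Csn3 by -0.82, Alx1 by -0.65, Zfp9 by -0.77, Zfhx4 by -0.35 and the Cecr2 probe sets by -2.0 and -2.96. These FVB/N groups share no array with the BALB/cCrl groups, though the fit estimates 1 spread for all. Both lines carry the same allele, so DNA linked to it could be shared, and this cannot be told apart from the trap.

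The difference between the strains was tested for each named gene as an interaction, the effect in BALB/cCrl minus that in FVB/N. Limma called 34 of 45037 probe sets for it (0.0755%), and 0 of the 70 probe sets of the 67 named genes, 21 of which had an unadjusted p under 0.05. Over all probe sets 7.92% had one, but most named genes were chosen for their BALB/cCrl difference, which is a term of the interaction, so nothing is read from the higher share. The smallest adjusted p among them was 0.18, for Galnt2, with 0.39 in BALB/cCrl and -0.18 in FVB/N (difference 0.57, SE 0.144). For Pianp the difference was -0.40 (SE 0.110, limma adjusted p = 0.23), for Zfp9 -0.56 (SE 0.212, limma adjusted p = 0.49), for Ncapd2 0.19 (SE 0.102, limma adjusted p = 0.68) and for Alx1 -0.18 (SE 0.144, limma adjusted p = 0.81). For Bnip3 it was 0.47 (SE 0.128, limma adjusted p = 0.22), with 0.36 in BALB/cCrl and -0.12 in FVB/N. The median of the hypoxia list was 0.106 in BALB/cCrl and -0.0325 in FVB/N. Other lists went both ways. In the same order of strains, the head mesenchyme list had -0.0806 and -0.104 and the endothelial list -0.0932 and -0.0974. The cardiac list had -0.0795 and 0.176. Differences between list medians were not tested. A p that misses the threshold does not show that the strains respond alike. Without mutant 4, and without wild type 1 and mutant 4, the interaction of Pdk1 at its dimmest probe set was called (1.02 and 0.87, limma adjusted p = 0.033 and 0.023).

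**Figure D5:**
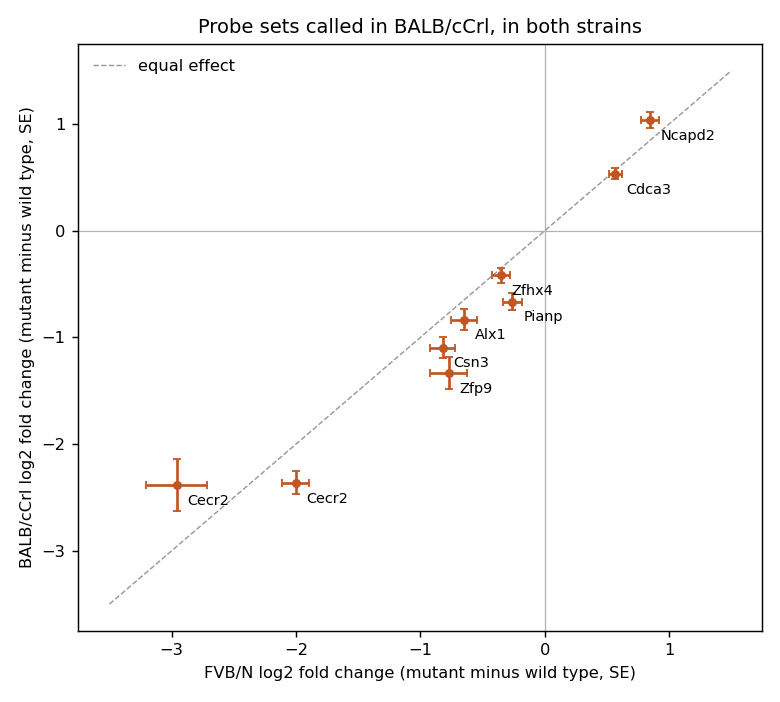
Difference between mutants and wild types (log2, with SE) of the 9 probe sets called in BALB/cCrl, in FVB/N (horizontal axis) and in BALB/cCrl (vertical axis), with a line of equal effect. All 9 lie on the same side of 0 in both strains, and Pianp shows -0.26 in FVB/N beside -0.66 in BALB/cCrl.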

How the data were processed

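The authors hybridised RNA of single embryos to Affymetrix mouse expression arrays and deposited log2 values of 45037 probe sets for all 16 arrays, and gcRMA log2 values for the 8 BALB/cCrl arrays alone. The submitters' processing notes name RMA and GCRMA, without versions. Arrays carry no sequencing depth, and their number limits the precision.

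The authors also deposited comparison tables with p-values for each probe set and, in one, a signed linear fold change used as a score, per the file headers. The 4 groups were fitted together in limma 3.58.1 (R 4.3.3), without covariates but with an intensity trend. Its tests were two-sided, Benjamini-Hochberg adjustment covered every probe set, and calls needed an adjusted p under 0.05. The labels do not say whether embryos of a group came from separate litters. The platform annotation gave 34945 probe sets 1 symbol, 932 several and 9160 none, or 18193 genes, each represented in lists by whichever of its probe sets was brightest on average. Symbols and distances come from RefSeq on GRCm38.p6 (34741 probe sets matched), and the build behind the authors' files is not given in the sources used here. Promoter sequences are those of RefSeq.

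Named genes were Cecr2, called genes, the 8 largest positive and 8 largest negative differences (level of at least 6, unadjusted p under 0.05, no overlap), up to 3 per list and the 10 of smallest p without wild type 1 and mutant 4. The members and lists were chosen with earlier results of these data known. Replicate numbers did not pair embryos (correlations of deviations -0.145 to 0.0441). The script was tested on simulated data. Data were handled with the data.table package (1.17.8), pandas 2.3.3 and numpy 2.4.6 under Python 3.11.15, and figures were drawn with matplotlib 3.10.9. Alternatives are listed in the closing section.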

Additional observations from a re-analysis of the deposited data

Results flagged for a closer look

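In 9 of 142 groups of 4 arrays examined, 1 array lay apart from the other 3 by more than the critical value of Dixon's gap test, which chance alone gives in about 1 of 20 groups. Wild type 1 lay apart on the first principal component at -25.146 (others -3.314 to 1.088), and mutant 4 at -20.492 (others 14.317 to 18.709). Wild type 1 was also high for 2 called genes, Csn3 at 7.86728 against 7.79063 to 7.79414 and Alx1 at 7.79963 against 7.51473 to 7.55556, in each case away from the mutants. Wild type 3 was low for Ncapd2 at 10.605 (others 10.77401 to 10.79593) and for Pfkp at 8.47924 (others 8.64418 to 8.65695). Among mutants, replicate 4 was low for Pdk1 at its dimmest probe set with 5.26916 (others 6.14669 to 6.28748), replicate 2 was high for Foxd3 at 7.06874 (others 6.85606 to 6.87161), and replicate 3 was high for Tfrc at 11.95517 (others 11.73529 to 11.76415).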

How the results depend on the processing

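The 9 calls became 8 in a fit of the 8 arrays alone and 3 in such a fit of the gcRMA table, 22 without wild type 1 and mutant 4, 50 when arrays were weighted (13 higher, 37 lower) and 14 after centring by array median, which moved the median difference of all probe sets from 0.00509 to -0.0165. Leaving out single arrays gave 8 to 115 calls, with 18 without mutant 2 and 115 without mutant 4. The share of calls that were higher was 22.2%, and it was 33.3% with gcRMA, 59.1% without both arrays, 44.4% without mutant 2, 38.5% without wild type 3, 77.4% without mutant 4, 26% with array weights, 14.3% after centring and 40% without the intensity trend. The cause was not tested. The other settings (quantile normalisation, no trend, a robust spread, a minimum mean of 5) gave 9 to 11 calls. With the replicate number as a block, 7 probe sets were called, and Pianp (adjusted p = 0.12) and Zfhx4 (0.52) were not. Both Cecr2 probe sets and Ncapd2 were called in all 18 alternatives, with log2 differences of -3.86 to -2.25, -3.5 to -2.18 and 0.99 to 1.21. Csn3, Alx1, Cdca3 and Zfp9 lost the call in 1, the gcRMA table, Pianp in 2 and Zfhx4 in 11. The count of named probe sets whose effect differed between strains was 0, and it was 1, Pdk1, without mutant 4 and without wild type 1 and mutant 4. Of the named genes in all settings, 1 value reversed sign, Hbb-bh1, which gave -0.0003817 without wild type 4 and at most 0.1003 when other single arrays were left out. Of 57 list medians under other settings, the 1 that moved beyond the spread between arrays was that of ISWI complexes (0.00641 with gcRMA). The fits without mutant 4 leave 3 mutants, and signals near the floor of the table, as for the second probe sets of Csn3 and Cdca3, limit what a small difference can show.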
